A study of Mus musculus with 2 samples.

Results

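Voltage-gated and related ion channel genes of the mouse are described here as targets of Dnmt1-Dam peaks in cleavage-stage embryos. They were taken by name: every peak whose assigned gene was a potassium channel gene (symbols beginning Kcn), a calcium channel gene (Cacna, Cacnb, Cacng) or a sodium channel gene (Scn followed by a digit). The imprinted genes Kcnq1 and Kcnk9 and the transcript Kcnq1ot1 were left out by that rule. This gave 87 of the 8226 deposited peaks, at 48 genes: 60 peaks at 35 potassium channel genes, 23 peaks at 10 calcium channel genes and 4 peaks at 3 sodium channel genes. All 48 symbols were found in the RefSeq gene table.

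The study used DamID, in which a protein fused to the bacterial adenine methyltransferase Dam leaves methylated GATC sites wherever it comes close to DNA. The Dnmt1-Dam library came from 50 embryos injected with Dnmt1-V5-Dam, a fusion of the maintenance DNA methyltransferase. The Dam-only library came from 50 embryos injected with Dam without a partner, which marks accessible DNA. For both, the zygotes came from superovulated females of 5 weeks, of the cross C57BL/6 x CBA/CA (BCF1), with no genotype given for the males, and DNA was taken from whole pools at the 4- to 8-cell stage. The fusion came from injection, so these are not native Dnmt1 levels, and each construct is represented by 1 pooled library. No difference between the libraries therefore has a replicate check. Intervals on shares and densities are exact, at 95%, and cover counting error only. No source used here states how many reads each library had, so the depth is unknown and a height carries no interval.

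Ion channels of these families sense membrane voltage, calcium or G proteins and let one kind of ion through the membrane. Potassium channels bring the membrane back toward rest, calcium channels turn depolarization into calcium entry, and sodium channels carry the upstroke of the action potential. They are best known in neurons, heart and muscle, and many of their genes are long, with large introns. Dnmt1 copies CpG methylation onto the new DNA strand at replication, and in the cleavage embryo much of the genome is losing methylation.

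Promoter sequence is shown for 3 genes to which the peak positions point, chosen after the positions were seen: Kcnk1, whose peak was the nearest to a start site, Kcnf1, which held the promoter-class peak, and Kcnma1, which held the most peaks. Each window is from RefSeq on build GRCm38.p6 and runs from 250 bases before to 50 bases after an annotated start, read 5′ to 3′ on the gene's strand. Capitals mark GATC, the site that Dam methylates. The peaks are on another build, mm9, and their start sites may differ from those of these windows.
Kcnk1 (chr8:125994852-125995151, plus strand): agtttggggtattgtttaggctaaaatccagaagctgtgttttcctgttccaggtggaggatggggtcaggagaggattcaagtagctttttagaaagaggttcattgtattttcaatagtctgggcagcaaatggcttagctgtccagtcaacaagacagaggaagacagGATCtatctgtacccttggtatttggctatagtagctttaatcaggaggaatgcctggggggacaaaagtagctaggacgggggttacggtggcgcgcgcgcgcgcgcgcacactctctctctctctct
Kcnf1 (chr12:17176839-17177138, minus strand): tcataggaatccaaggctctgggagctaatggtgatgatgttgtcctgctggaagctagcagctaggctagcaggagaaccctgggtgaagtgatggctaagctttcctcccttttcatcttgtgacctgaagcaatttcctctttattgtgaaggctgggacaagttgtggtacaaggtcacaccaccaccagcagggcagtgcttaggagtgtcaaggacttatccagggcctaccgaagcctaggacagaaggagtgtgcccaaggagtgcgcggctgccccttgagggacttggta
Kcnma1 (chr14:24004156-24004455, minus strand): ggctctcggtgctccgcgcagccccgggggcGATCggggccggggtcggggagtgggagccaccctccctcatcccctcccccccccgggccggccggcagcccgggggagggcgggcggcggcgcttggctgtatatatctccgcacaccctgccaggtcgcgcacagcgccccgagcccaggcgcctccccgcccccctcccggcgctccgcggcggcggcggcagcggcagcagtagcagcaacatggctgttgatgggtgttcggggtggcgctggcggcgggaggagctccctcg
GATC occurred 1 time in the Kcnk1 window, was not found in that of Kcnf1, and occurred 1 time in that of Kcnma1. CG occurred 10, 3 and 36 times in the same order. Among 56 windows of 40 genes with a peak, 26 held GATC (46.4%, 33.0 to 60.3), beside 15758 of 32851 windows in the whole table (48.0%). GATC reads the same on both strands, as does CG, and the motifs can share 1 base at either end of GATC. Channel genes without a peak had GATC in 40.5% of 79 windows (29.6 to 52.2). The median number of CG per window was 11.5 at the genes with a peak (interquartile range 7 to 26.2), 8 at channel genes without one (4 to 17.5) and 7 in the whole table (3 to 20), with wide overlap.

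Of 132 channel genes with a curated messenger RNA in RefSeq, 48 had an assigned peak (36.4%, 28.2 to 45.2). Of all 21035 such genes, 22.7% had a peak. A peak inside the body was present in 35 channel genes (26.5%, 19.2 to 34.9), beside 11.5% of all genes. A peak in a promoter class was present in 1 (0.758%, 0.0192 to 4.15), beside 2.42% of all genes. Shares with any peak and with a body peak thus lay above the level of all genes, and the promoter share could not be told from it at this number of genes. Among genes with a peak, the channel genes also had the larger median length. The 48 channel genes had a median length of 148 kb (interquartile range 39.2 to 299), and the other 4545 genes named at a peak had 41.2 kb (14.8 to 108). Lengths of genes without a peak are not in the deposited table, so the part of length in the gene shares was not tested.

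Among potassium channel genes 35 of 92 had a peak (38.0%, 28.1 to 48.8), and among calcium channel genes 10 of 26 (38.5%, 20.2 to 59.4). Sodium channel genes had one in 3 of 14 (21.4%, 4.66 to 50.8), and these intervals overlap. By family, peaks reached 17 of 39 voltage-gated potassium pore genes, 4 of 15 inward rectifiers, 5 of 13 tandem-pore (leak) genes and 4 of 8 calcium- or sodium-activated channel genes. Potassium channel auxiliary subunits, which set gating and surface delivery, had a peak in 5 of 17. The calcium channel pore genes had one in 5 of 10, the alpha2delta subunits, which help channels reach the membrane, in 3 of 4, the cytoplasmic beta subunits in 1 of 4 and the gamma subunits in 1 of 8. Sodium channel pore genes had one in 3 of 10, and their beta subunits, which are cell adhesion proteins as well, in 0 of 4. Of the 3 channel genes on the X chromosome none had a peak.

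**Figure D1:**
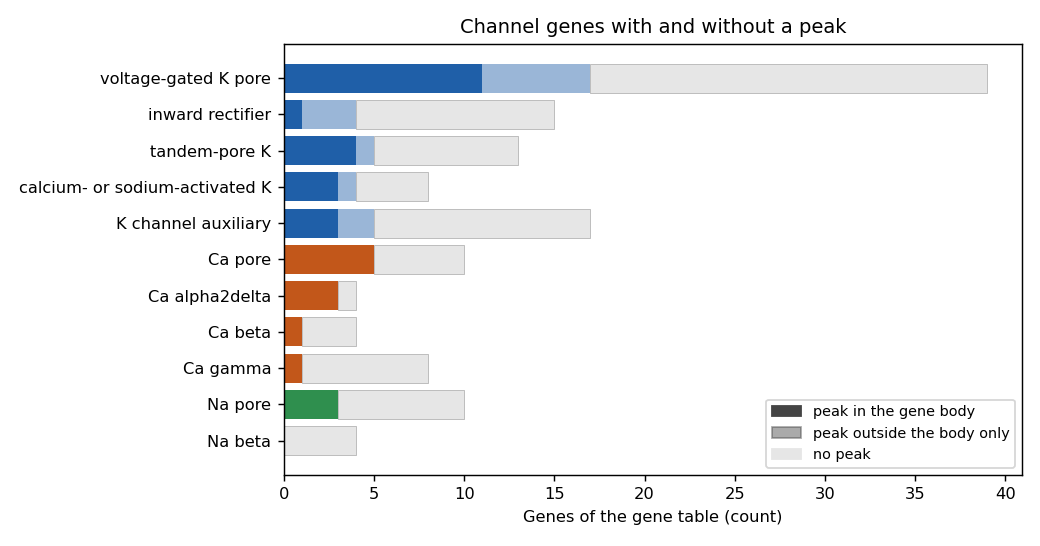
Number of channel genes of the RefSeq gene table in each family (horizontal axis, count), split into genes with a peak in the gene body (dark), with peaks outside the body only (pale) and with no peak (grey). All 10 calcium and all 3 sodium channel genes with a peak had one in the body, while 13 potassium channel genes had peaks only outside it.

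Peak heights were low at nearly all channel genes. The Dnmt1-Dam heights of the 87 peaks ran from 7 to 22 with a median of 8 (interquartile range 7 to 10), against Dam-only heights of 1 to 5 with a median of 1. The height ranges of the libraries did not overlap at these peaks. The deposited list fixes the direction at each peak, since all its peaks are higher in Dnmt1-Dam, by 6 or more. Over the whole list the ranges do overlap, with Dam-only heights of up to 17 and Dnmt1-Dam heights from 7. The smallest height in the list, 7, was that of 27 channel peaks (31.0%, 21.6 to 41.9) and of 26.8% of the peaks of other genes. Peaks of other genes had a median of 9 (7 to 11). A height of 12 or more was reached by 10 channel peaks (11.5%, 5.65 to 20.1), beside 20.2% of peaks of other genes, just past the upper end of that interval. At 15 or more there were 5 channel peaks (5.75%, 1.89 to 12.9), beside 8.66% of all peaks, so the count of the highest peaks could not be told from the level of the whole list.

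The linear ratio of the heights, Dnmt1-Dam over Dam-only, had a median of 8 (interquartile range 7 to 9) at channel genes and the same median and quartiles at other genes. Scaled to the sums over all peaks, with a pseudocount of 1, the median log2 ratio was 0.13 at both. These sums come from the listed peaks themselves, all of them higher in Dnmt1-Dam. The scaling thus sets the level of the log2 ratio, and 0.13 does not measure enrichment. The linear ratio was 10 or more at 18 channel peaks (20.7%, 12.8 to 30.7), beside 23.4% of all peaks. The Dam-only height was 1 at 71 channel peaks (81.6%, 71.9 to 89.1) and at 75.8% of the peaks of other genes. That is the smallest Dam-only height in the whole list. At these 71 peaks the linear ratio equals the Dnmt1-Dam height, so it is not a second measure there. By class the median Dnmt1-Dam height was 8 for potassium (7 to 10), 8 for calcium (7 to 11) and 9.5 for sodium channel genes (8.75 to 10, over 4 peaks), so the classes overlapped almost entirely. Body peaks had a median of 8 (7 to 11) and peaks outside the body a median of 8 (7 to 9).

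**Figure D2:**
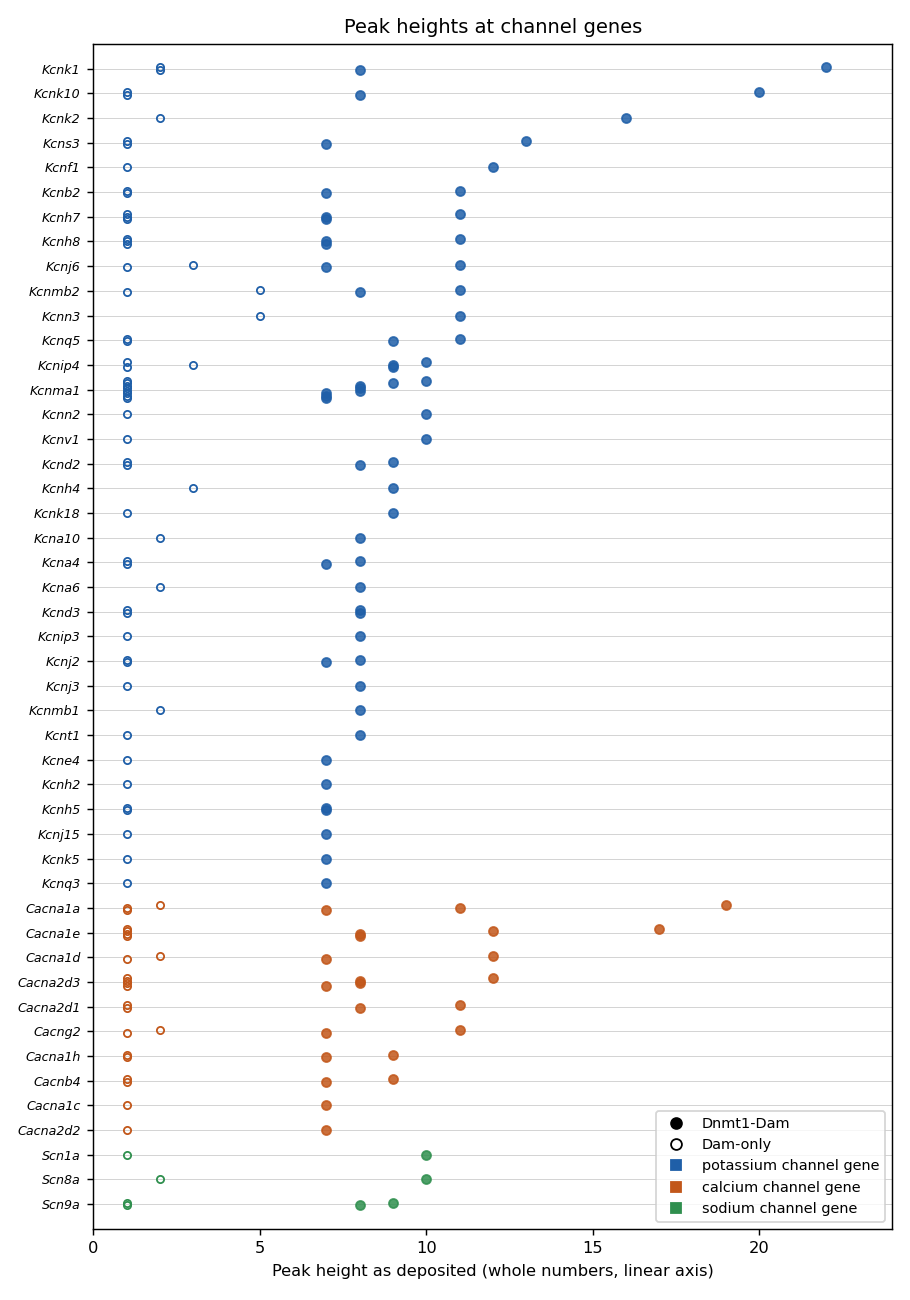
Heights of the channel peaks by gene (1 gene is not shown), in whole numbers as deposited (horizontal axis, linear), with the Dnmt1-Dam library as filled circles and the Dam-only library as open circles; genes are grouped by class and ordered by their highest peak. Most filled circles lie between 7 and 11, and 5 reach 15 or more, at Kcnk1, Kcnk10, Kcnk2, Cacna1a and Cacna1e.

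Of the 5 highest channel peaks, 3 were at tandem-pore potassium channel genes, whose products carry the resting leak current. At Kcnk1, which encodes the weakly conducting TWIK channel, the peak had a height of 22 in Dnmt1-Dam against 2 in Dam-only. It lay 1.499 kb downstream of the start site, at position 128520501 of chromosome 8 (mm9), in repeat-free DNA of the gene body. In all, 131 of the 8226 peaks (1.59%) were at least as high. A second Kcnk1 peak, of 8 against 2, lay 3.72 kb beyond the gene in LTR sequence.

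Kcnk10 encodes a mechanosensitive leak channel. Its peak of 20 in Dnmt1-Dam against 1 in Dam-only lay at position 99673501 of chromosome 12, in repeat-free DNA 143 kb from the start of a gene of 144 kb. A lower one of 8 against 1 lay in a SINE of the same gene, 101 kb from the start. Kcnk2, a close relative in the same mechanosensitive group, had 16 against 2 at position 191107711 of chromosome 1, 60 kb into the body. The other tandem-pore genes were lower, with 7 against 1 inside Kcnk5, an acid-sensitive channel gene, and 9 against 1 in a simple repeat 18.2 kb upstream of Kcnk18. Within this family the Dnmt1-Dam heights thus ran from 7 to 22 over 7 peaks.

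The voltage-gated pore genes held 28 peaks at 17 genes, 15 of them in gene bodies, with heights of 7 to 13. The highest were at silent subunits, which form no channel alone but modify partner subunits. Kcns3 had 13 in Dnmt1-Dam against 1 in Dam-only in a SINE of its body, at position 11103321 of chromosome 12, and 7 against 1 at 294 kb from the gene. Kcnf1 had 12 against 1 at position 17192451 of the same chromosome, 9.12 kb upstream of the start, in SINE and DNA transposon sequence. That was the channel peak of the distal promoter class, which spans 10 to 3 kb upstream. Kcnv1, another silent subunit gene, had 10 against 1 in a LINE 1734 kb upstream, the farthest of all 87, and the gene is as the authors' table assigns it.

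Genes of the ether-a-go-go group, whose channels shape repolarization, held 10 peaks at 5 genes. Kcnh7 and Kcnh8 had 3 each, with heights of 11, 7 and 7 against 1 in Dam-only at both genes, and in both the peak of 11 lay in a SINE outside the gene, 365 kb upstream of Kcnh7 and 115 kb beyond Kcnh8. Both Kcnh5 peaks were outside the gene at 7 against 1, Kcnh4 had 9 against 3 in its body, and Kcnh2, the gene of the cardiac rapid delayed rectifier, had 7 against 1 in the shore of a CpG island 40.5 kb beyond its end. The M-current genes Kcnq3 and Kcnq5 had 3 peaks, all inside the body and repeat-free, with 11 and 9 against 1 at Kcnq5 and 7 against 1 at Kcnq3. The other voltage-gated members were Kcnb2, Kcnd2, Kcnd3, Kcna4, Kcna6 and Kcna10, with Dnmt1-Dam heights of 7 to 11. Kcnb2, Kcnd2 and Kcna10 had theirs inside the gene and Kcnd3 had 1 of 2 inside, while Kcna4 and Kcna6 had theirs outside.

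Kcnma1, which encodes the pore of the large-conductance calcium-activated potassium channel, held the most peaks of any channel gene. Its 8 peaks had Dnmt1-Dam heights of 7, 8, 8, 9, 7, 10, 8 and 7 in order along chromosome 14, against 1 in Dam-only at each. The gene is on the minus strand (chromosome 14, 24117983 to 24823427, 705 kb), with 5 peaks inside, 2 beyond its end at 206 and 275 kb, and 1 at 38.9 kb upstream. None of the 8 was in a retroelement, and 1, at 45.8 kb into the body, was in the shore of a CpG island. The 5 inside peaks give 7.09 per Mb (2.30 to 16.5).

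Small- and sodium-activated relatives had 1 peak each. These were 11 against 5 inside Kcnn3, 10 against 1 upstream of Kcnn2 at 311 kb, and 8 against 1 inside Kcnt1, all repeat-free. Of the 11 peaks of this family none was in a SINE, LTR or LINE. A count of 0 among 11 allows a share of up to 27.3% (3 counts; 28.5% by the exact interval), beside 35.0% of the peaks of other genes in any of these elements. Of the 11 peaks 7 were in gene bodies, where other genes had these elements at 30.1% of peaks, beside 38.7% outside the body. The 11 are few, and 8 of them were at Kcnma1, so most share a gene.

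Inward rectifiers, which hold the resting potential, had 6 peaks at 4 genes, with 1 of them in a body. That peak, at Kcnj6, a G protein-gated channel gene, had 11 against 3 and lay in a CpG island shore 221 kb from the start. A second Kcnj6 peak of 7 against 1 lay 77.1 kb upstream. Kcnj2 had 8 and 7 against 1 and Kcnj3 8 against 1, each in a LINE more than 100 kb beyond the gene, and Kcnj15 had 7 against 1 at 14.04 kb beyond its end.

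Auxiliary potassium channel genes had 8 peaks at 5 genes. Kcnip4, a calcium-binding partner of the A-type channels, had 10 against 1 in a SINE of its body, 9 against 1 at 10.6 kb upstream and 9 against 3 in a SINE 54.1 kb upstream. Kcnmb2, a subunit of the large-conductance channel, had 11 against 5 and 8 against 1, both in its body. Kcnip3 had 8 against 1 in its body, while Kcnmb1 (8 against 2) and Kcne4 (7 against 1) had theirs outside. A Dam-only height of 3 or more was found at 6 channel peaks, all of potassium channel genes, among them those of Kcnmb2, Kcnn3, Kcnh4, Kcnj6 and Kcnip4. This was 10% of their peaks (3.76 to 20.5), beside 0 of 27 at calcium and sodium channel genes, where a count of 0 allows up to 11.1% (3 counts; 12.8% by the exact interval), and 11.8% at other genes, so a difference from other genes was not detectable.

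Calcium channel genes held 19 of their 23 peaks in gene bodies, with heights of 7 to 19. Cacna1a, the pore of the presynaptic P/Q-type channel, had Dnmt1-Dam heights of 19, 11 and 7 against 2, 1 and 1 in Dam-only, all in its body. The peak of 19 lay at position 87150741 of chromosome 8, repeat-free and 211 kb into a gene of 225 kb. The 3 peaks give 13.3 per Mb (2.75 to 39.0). Cacna1e, the pore of the R-type channel, had a pair of peaks 100 bp apart with 17 and 12 against 1, at positions 156684131 and 156684031 of chromosome 1. This pair lay 111 kb upstream of the gene and counts as 1 peak when peaks within 1 kb are joined. Its other peaks had 8 against 1 inside the gene and 8 against 1 in a CpG island shore 145 kb upstream, in LINE and SINE sequence.

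Cacna2d3, an alpha2delta subunit gene of 817 kb on chromosome 14, had 12, 8, 8 and 7 against 1, all inside. That is 4.90 per Mb (1.33 to 12.5), and the interval contains the 4.18 of other genes over 200 kb with a peak. The highest Cacna2d3 peak lay 234 kb from the start, at position 30300641. Among the L-type pore genes, peaks were at Cacna1d (12 against 2 and 7 against 1) and Cacna1c (7 against 1), all in repeat-free DNA of the body. Cacna1f and Cacna1s, also L-type, had none. The peak of 12 at Cacna1d lay at position 31256761 of chromosome 14. Of the T-type pore genes, Cacna1h had 9 and 7 against 1, both inside its 59.5 kb body, and Cacna1g and Cacna1i had no peak. Cacna2d1 had 11 against 1 inside and 8 against 1 outside, Cacna2d2 had 7 against 1 inside, and the beta subunit gene Cacnb4 had 9 and 7 against 1, the lower one in LTR sequence 3.28 kb from the start. Cacng2, which encodes stargazin, a partner of AMPA receptors, had 11 against 2 and 7 against 1 in its body.

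Sodium channel genes had 4 peaks, all in the bodies of pore genes expressed in neurons. Scn1a had 10 in Dnmt1-Dam against 1 in Dam-only in a LINE at position 66190671 of chromosome 2. Its neighbor Scn9a, known for its role in pain sensing, had 9 and 8 against 1 at positions 66393301 and 66393431, a pair 130 bp apart in SINE sequence. Scn8a, the main channel of the axon initial segment, had 10 against 2 at position 100838641 of chromosome 15 in repeat-free DNA. None of the 4 reached 12, and with the pair counted once the sodium channel genes rest on 3 sites.

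**Figure D3:**
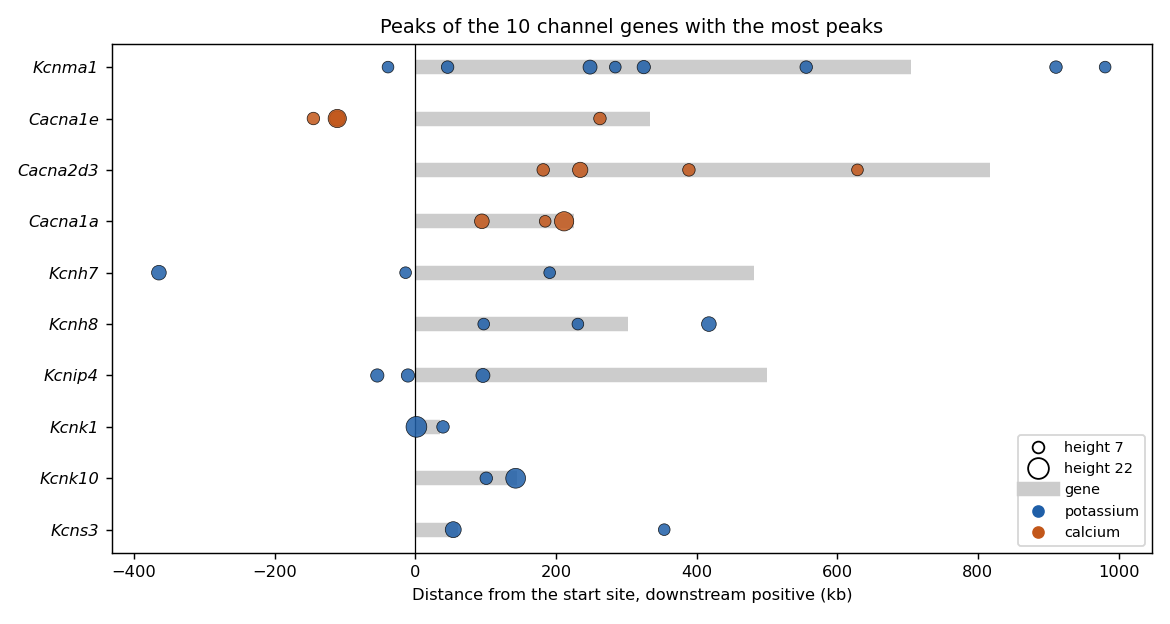
Positions of the peaks of the 10 channel genes with the most peaks, as distance from the start site in kb (horizontal axis, downstream positive), with the gene as a grey bar and circle area in proportion to the Dnmt1-Dam height. Kcnma1, Cacna2d3 and Cacna1a carry peaks spread over the body, and the largest circle, of height 22, lies 1.499 kb into Kcnk1.

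By location, 55 of the 87 channel peaks lay in gene bodies (63.2%, 52.2 to 73.3), beside 42.2% of the peaks of other genes (41.1 to 43.3). Intergenic DNA held 31 (35.6%, 25.7 to 46.6), beside 51.0% (49.9 to 52.1). There was 1 channel peak in a distal promoter (1.15%, 0.0291 to 6.24), beside 4.10%, and none in a proximal promoter (3 kb before the start to 1 kb after it), beside 2.69%. A count of 0 among 87 allows a share of up to 3.45% (3 counts; 4.15% by the exact interval), so a lack of proximal promoter peaks was not detectable. No channel peak was in a CpG island, beside 0.565% at other genes, which is within the same limit, and 4 were in island shores (4.60%, 1.27 to 11.4), beside 3.49% at other genes. Body peaks made up 32 of 60 at potassium channel genes (53.3%, 40.0 to 66.3), 19 of 23 at calcium channel genes (82.6%, 61.2 to 95.1) and 4 of 4 at sodium channel genes. The potassium and calcium intervals overlap, and a difference between the classes was not tested.

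At other genes the body share rose with gene length, while at channel genes it was highest from 50 to 200 kb. At channel genes under 50 kb, all of them potassium channel genes, 5 of 18 peaks were in bodies (27.8%, 9.70 to 53.5), beside 25.8% at other genes of that length. Over 200 kb the body held 34 of 50 (68.0%, 53.3 to 80.5), beside 67.1%. Between 50 and 200 kb it held 16 of 19 (84.2%, 60.4 to 96.6), beside 49.8% (47.8 to 51.8). By body share, channel genes of the shortest and longest groups thus lay at the level of other genes of like length, and the middle group lay above it. These length groups were chosen after the data had been seen. In the group over 200 kb, 7 calcium channel genes had 14 of 18 peaks inside (77.8%, 52.4 to 93.6) and 12 potassium channel genes 20 of 32 (62.5%, 43.7 to 78.9).

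The density of peaks inside the 48 genes was 5.55 per Mb (4.18 to 7.23), over 9.91 Mb of gene. It was 5.35 per Mb (3.66 to 7.56) for potassium, 5.54 (3.33 to 8.65) for calcium and 8.00 (2.18 to 20.5) for sodium channel genes. Other genes with a peak had 7.28 per Mb (7.03 to 7.53), and among those over 200 kb the channel genes had 4.30 (2.98 to 6.01) beside 4.18 (3.93 to 4.44). From 50 to 200 kb, channel genes had 9.3 per Mb (5.3 to 15.1) beside 8.5 (8.1 to 9.0) at other genes. The larger body share of that group thus came without a detectably higher density inside genes. Peaks per gene, inside and outside together, were 1.36 there, beside 1.73 at other genes. Each of these genes entered by having a peak, which lifts the density of short genes most, so densities are comparable only within a length group.

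**Figure D4:**
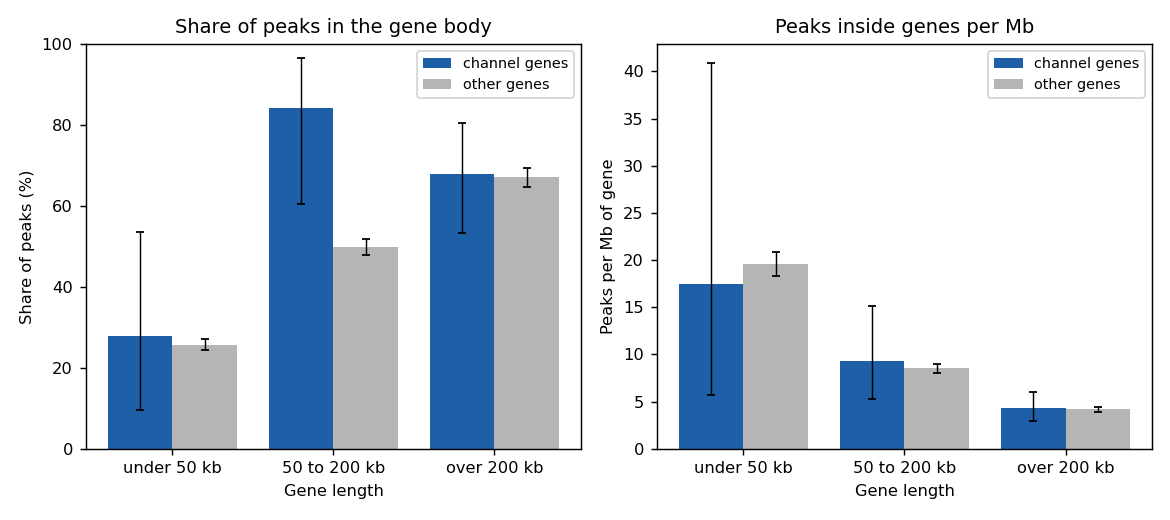
Share of peaks in the gene body (left, %) and peaks inside genes per Mb (right) for channel genes (blue) and other genes with a named peak (grey) in 3 groups of gene length; bars are values and lines exact 95% intervals. The groups differ in the body share between 50 and 200 kb (84.2% and 49.8%) and overlap elsewhere.

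The 55 peaks inside channel genes were spread along them. Their median position was 51.4% of the way from start to end (interquartile range 30.4 to 78.6), beside 52.5% (27.5 to 77.1) at other genes. The nearest to a start site was the Kcnk1 peak, and the median distance of body peaks from the start was 113 kb, beside 45.2 kb at other genes, which are shorter. Outside the genes, 16 channel peaks were upstream and 16 downstream (50.0% upstream, 31.9 to 68.1). At other genes 62.3% of the 4702 peaks outside the body class were upstream, a level within that interval. Those 4702 include promoter-class peaks that lie inside genes. Of the 32 channel peaks, 17 were more than 100 kb from the gene (53.1%, 34.7 to 70.9), beside 40.5% of the 4657 peaks outside other genes. Potassium channel genes supplied 28 of the 32, and the 4 calcium channel ones were all upstream, at Cacna1e and Cacna2d1.

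Named repeats took a smaller share of channel peaks inside genes than outside, with overlapping intervals. In gene bodies 41 of 55 channel peaks had no repeat (74.5%, 61.0 to 85.3), beside 66.1% at other genes. Outside the body 15 of 32 had none (46.9%, 29.1 to 65.3), beside 56.3%. SINEs were named at 9 body peaks (16.4%, 7.77 to 28.8), beside 18.4%, and at 7 outside (21.9%, 9.28 to 40.0), beside 16.1%. LINEs were named at 3 body peaks (5.45%, 1.14 to 15.1), beside 5.35%, and at 6 outside (18.8%, 7.21 to 36.4), beside 10.2%. LTR elements were named at 1 body peak (1.82%, 0.0460 to 9.72), beside 7.10%, and at 2 outside (6.25%, 0.766 to 20.8), beside 13.6%. Within each location the intervals of channel genes contain the level of other genes for all 3 element types.

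Over both locations LTR sequence was named at 3 channel peaks, those of Cacnb4, Kcnk1 and Kcne4 (3.45%, 0.717 to 9.75), beside 10.9% at other genes (10.2 to 11.6). Channel genes also had the larger share of body peaks, where LTR sequence is less common among other genes (7.10% beside 13.6% outside), and its part in the difference was not tested. All 6 outside peaks in LINEs were more than 100 kb from the gene, at Kcnv1, Kcna4, Kcnj2, Kcnj3 and Cacna1e, which is 6 of 17 at that distance (35.3%, 14.2 to 61.7), beside 12.8% at other genes (11.3 to 14.4). Within 100 kb it was 0 of 15 (0 to 21.8% by the exact interval). That interval contains the 8.59% of other genes, so a lack of LINEs near the genes was not detectable. That split was chosen after the data had been seen, and Kcnj2 supplied more than 1 of the peaks.

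**Figure D5:**
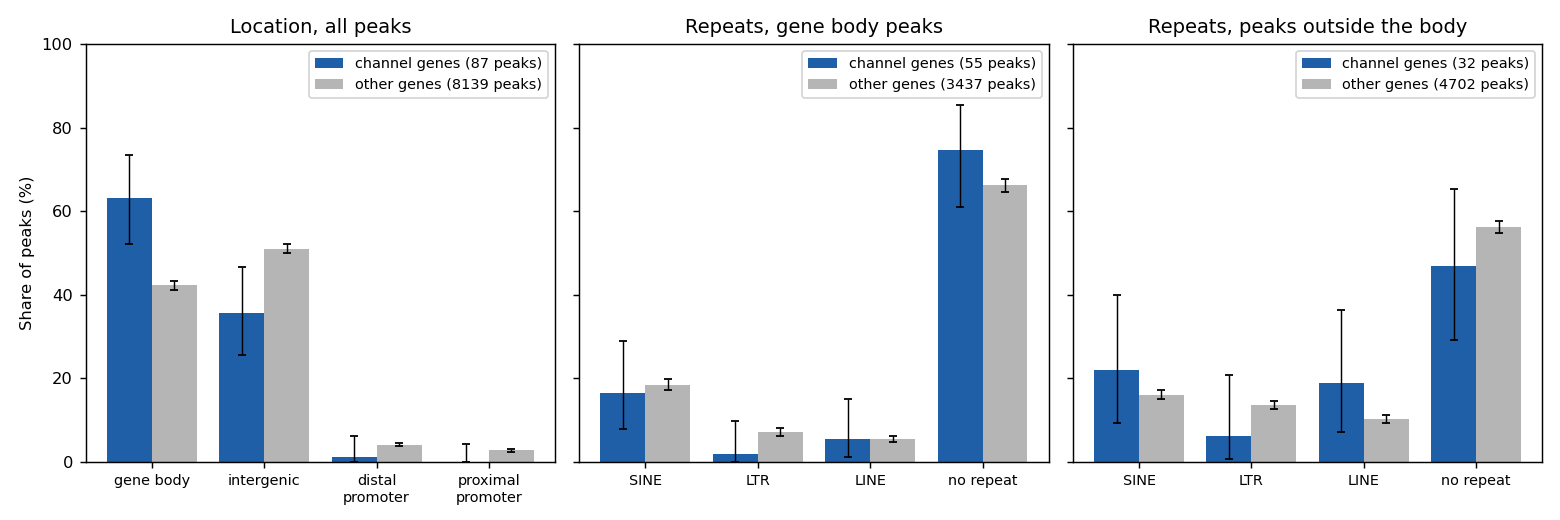
Shares of peaks (vertical axis, %) by location class (left), and by repeat class for peaks in gene bodies (middle) and outside them (right), for channel genes (blue) and other genes (grey); bars are shares and lines exact 95% intervals. Channel genes stand higher for gene bodies (63.2% beside 42.2%) and lower for intergenic DNA, and the repeat shares overlap within each location.

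Channel peaks were spread over 15 chromosomes, and chromosome 14 held 15 of them (17.2%, 9.98 to 26.8), beside 4.25% of all peaks. They came from 4 genes, Kcnma1, Cacna2d3, Cacna1d and Kcnk5. Without Kcnma1 the chromosome held 7 of 79 channel peaks (8.86%). No interval is given for that share, and a difference from the 4.25% of all peaks was not tested.

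Other channels and channel partners were taken from a list of 43 genes, of which 42 are in the gene table. The list was written with earlier results of these data known, so its shares are descriptive only. Of these 42 genes, 20 had a peak (47.6%, 32.0 to 63.6), and 11 had one in the body (26.2%, 13.9 to 42.0), beside 22.7% and 11.5% of all genes. The part of gene length in these shares was not tested. Ryr2, the calcium release channel of heart muscle, had 6 peaks, 3 of them in the body, and the highest of 22 against 3. Stim2, a sensor of stored calcium, had 6 peaks, none in the body, and the highest of 16 against 8. Dpp6, an auxiliary subunit of the A-type channels, had 4, and Fgf12, which binds sodium channels, had 4, all in its body, with top heights of 16 against 2 and 12 against 1. Ryr3 had 3 in its body, the highest of 24 against 1, above every peak of the 48 channel genes.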

How the data were processed

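Reads went through CASAVA and BWA with build mm9, per the submitters' processing notes. How peaks were called and duplicate reads handled is not given in the sources used here. Per the labels' protocols, libraries were amplified with 15 PCR cycles and selected around 300 bp. The deposited table gives for each peak 1 position, a signal height in each library, a location class, CpG island context, repeat classes and a gene. Whether the authors scaled these signal heights is not stated, so they were not treated as counts.

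Members and lists were chosen with earlier results of these data known. Genes were named by the deposited symbol; 4883 of 4903 accessions matched the RefSeq table of GRCm38.p6, used for names and for all genes with a curated messenger RNA. Body length came from the deposited gene start and end. A peak with several repeat classes counted in each. Shares have Clopper-Pearson and densities exact Poisson intervals at 95% (SciPy 1.17.1, Python 3.11.15). Their coverage was tested on simulated independent counts only, so peaks that share a gene or lie close together are not allowed for. A count of 0 was given the limit of 3 counts. With 1 library per group there was no test and no p-value. The log2 ratio used a pseudocount of 1 after scaling Dnmt1-Dam to the Dam-only sum over all peaks (81171 and 12018). Peaks of other genes include those with no gene name, except where length is used.

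Named genes were the 5 highest peaks of each class, the 10 genes with the most peaks, genes with a promoter or CpG context peak, all sodium channel genes and the 5 partner genes with the most peaks; the other members were named with their heights after these were seen, except 1 gene that is counted in the totals and not reported here by name. Protein sequence is not used here, and the promoter windows printed were chosen after the peak positions were seen, since no channel gene had a proximal promoter peak. Alternatives were height filters, 1 peak per run within 1 kb, Dam-only height 1, leaving out Kcnma1, naming by accession, narrower assignment, other pseudocounts and the first repeat named.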

Additional observations from a re-analysis of the deposited data

How the results depend on the processing

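Of 165 recalculated values, 133 stayed within the main interval, the interquartile range or 1.5 times a count, and 32 moved beyond it. Keeping 1 peak per 1 kb run, naming genes by accession, leaving out Kcnma1, a Dam-only height of 1, a pseudocount of 0.5 and the first repeat named moved none of the values recalculated under them. A height of 9 or more left 37 peaks at 31 genes (24 peaks at 20 potassium channel genes, 10 calcium channel peaks), by the loss of low peaks. It gave median heights of 11 (all), 10.5 (potassium), 11.5 (calcium) and 10.5 (outside), a median log2 ratio of 0.31 instead of 0.13, 24.3% intergenic, 0% LTR, 13.5% of height 15 or more and 48.6% of ratio 10 or more. Peaks then reached 23.5% of channel genes, 21.7% of potassium channel genes and 18.2% in the body, at 3.39 per Mb. A height of 15 or more left 5 peaks: 80.0% body, 20.0% intergenic, 100% without a repeat, and 0% distal promoter, SINE, LTR and LINE. Levels of all genes and all peaks under these height filters are not given here. The filtered values are therefore not to be set against the unfiltered levels above. With assignment limited to 10 kb, 27.3% of channel genes, 25% of potassium channel genes and 13 partner genes had a peak, beside 14.7% of all genes under that rule. The log2 ratio was 2.17 unscaled and 0.024 with a pseudocount of 10. Body shares by gene length, added after the data were seen, were 27.8% under 50 kb and 84.2% from 50 to 200 kb. No paired analysis was possible because each group is 1 library, and leaving out a replicate was not possible for the same reason. The unknown depth limits every statement on low peaks: 27 of 87 lie at the smallest listed height.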
